A study of Rattus norvegicus with 10 samples.

Results

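Xiap, Bid and Cyld are 3 genes of the cell death machinery, and they were taken by symbol from the RNA-seq table of rat lens capsules, which lists 3334 genes. Each symbol matched 1 row. The Hypothermia Group held 5 male Sprague-Dawley (SD) rats aged 6 weeks, whose lenses were removed and kept at 4°C for 8 h in Hibernate-A medium, and the Normal Group held 5 such rats whose capsules were taken at once after death. Both capsules of 1 rat made 1 sample. The capsules were separated from the lens cortex, and the methods do not state which cells stayed on them. The Normal lenses were never placed in the medium, so cold, medium and the time outside the body cannot be told apart in any difference between the groups. The table is not a transcriptome: it lists genes that had already been selected for a difference between these same rats. The presence of the 3 genes in it is part of that selection, and no test on them is independent of it.

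Xiap encodes the X-linked inhibitor of apoptosis, a protein that binds caspases, the proteases that carry out apoptosis, and blocks them. Bid encodes a BH3-only member of the BCL-2 family that is cut by caspase-8 after death receptor signalling, and the cut form moves to mitochondria and helps open their outer membrane. Cyld encodes a deubiquitinase that removes lysine-63-linked and linear ubiquitin chains from signalling proteins below the TNF receptor, which restrains NF-κB and permits death signalling. In the lens, the epithelial layer under the anterior capsule is the part that still divides and renews, and its death has been studied as a step towards cataract.

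Xiap was the member that the study also measured by RT-qPCR, with Actb as the reference gene. The paper reported Xiap as lower in the Hypothermia Group in RNA-seq and in protein, and its RT-qPCR as showing the same change. For RT-qPCR the paper describes its own set of rats, with capsules of different rats combined in a sample. The primer pairs are shown because a ratio of Xiap to Actb, which they measure, can also be formed from the RNA-seq counts. The RNA-seq ratio thus comes from other samples than the RT-qPCR. Each primer is written 5′ to 3′ in lower case, no part of it is marked, and each has 22 bases.
Xiap forward: gcagaatatgacgcacggatcg
Xiap reverse: tgagccctcctccacagtgaaa
Actb forward: cagggtgtgatggtgggtatgg
Actb reverse: agttggtgacaatgccgtgttc

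Depth was known for the listed genes alone, with 9026144 to 12415121 counts per rat in the Hypothermia Group and 4792595 to 8177803 in the Normal Group. Counts were divided by the authors' own size factors (0.744 to 0.980 and 1.08 to 1.26) to give normalized counts, and 3222 genes had enough counts to be tested. The 2 ranges of size factors did not overlap, so the scaling bears on every comparison between the groups. Lens fibre genes, chiefly crystallins, took up 58.5% to 70.3% of these counts in Hypothermia rats and 22.3% to 52.3% in Normal rats. Of 8 lens epithelial markers, Pax6 and Gja1 were in the table, and for both every Hypothermia rat was below every Normal rat. Such a separation held for 16.7% of the tested genes. In the edgeR test described below, Pax6 just passed (adjusted p = 0.0498) and Gja1 did not (adjusted p = 0.0567). Without 1 rat, Pax6 passed in 1 of 10 refits and Gja1 in 0. For 8 listed markers of retina, pigment epithelium and ciliary body the summed normalized count was 217 to 477 in the Hypothermia Group and 483 to 1789 in the Normal Group, with 4 of them (Rpe65, Myo7a, Tyr and Gpr179) at 0 in at least 1 rat. In the Normal Group the largest part of this sum was Mfrp, whose groups overlapped (36.7 to 239 against 86.7 to 1301). Of the 5 markers of this list that could be tested, 1, Pmel, passed the edgeR test as lower, against 20.5% of all tested genes. Pmel had a log2FoldChange of -1.77 (edgeR adjusted p = 0.0171) and passed in 10 of 10 refits without 1 rat, with overlapping groups. For 5 listed fibroblast and vessel genes the sum was 1559 to 5878 against 3363 to 31650. Most of it was Fbn1, whose groups overlapped as well (882 to 4762 against 788 to 30055). Of the other genes in this sum, Fn1 and Pdgfrb had every Hypothermia rat below every Normal rat, as did 16.7% of all tested genes. None of 12 leukocyte and blood markers was among the listed genes, and these were not analysed here. The part of these cell types in the results on Xiap, Bid and Cyld was not tested. In these bulk samples, fewer cells of a type and less RNA per cell cannot be told apart.

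In the Hypothermia Group, Xiap had 0.801 times and Cyld 0.778 times the Normal level, and Bid had 1.38 times, with the direction of Bid resting on the scaling. The quasi-likelihood test of edgeR, with the size factors above, called Cyld lower and Bid higher, while Xiap missed the threshold of an adjusted p of 0.05. Among all tested genes, 72.9% passed that threshold, 52.3% as higher and 20.5% as lower, so 2 calls among 3 genes are near the share of the whole list. For each gene the values of the 5 Hypothermia rats lay entirely on one side of those of the 5 Normal rats, which also held for 41.9% of the tested genes in the higher direction and for 16.7% in the lower. With no overlap, the exact permutation test on log2(normalized count + 1) gave p = 0.00794 (two-sided) for each of the 3, the smallest value that 5 rats against 5 allow.

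The Xiap gene is on chromosome X (Rnor_6.0), between 128409472 and 128453000 on the plus strand, and its counted length is 2560 bases. In the Normal Group its normalized counts were 543, 431, 485, 463 and 485 in replicates 1 to 5. In the Hypothermia Group they were 422, 392, 299, 398 and 416. The highest Hypothermia rat, replicate 1, was thus 9.10 normalized counts below the lowest Normal rat, replicate 2, and Hypothermia replicate 3 stood well below the other rats of its group. The group means were 481.5 ± 40.9 (SD, n = 5) in the Normal Group and 385 ± 50.04 (SD, n = 5) in the Hypothermia Group. The log2FoldChange was -0.32 (standard error 0.10), which is a level of 0.801 times that of the Normal Group, and the adjusted p was 0.0580 (edgeR). The spread between rats was wider than counting error alone gives, with a coefficient of variation of 13.0% against 5.51% from counting in the Hypothermia Group. Without Hypothermia replicate 3 the log2FoldChange was -0.24, and in the 10 refits without 1 rat the adjusted p was between 0.0560 and 0.128 (edgeR). DESeq2 on the same counts and size factors called Xiap lower, with an adjusted p of 0.0377.

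The Cyld gene is on chromosome 19 (Rnor_6.0), between 19265164 and 19315357 on the minus strand, with a counted length of 3562 bases. Its normalized counts were 364, 349, 392, 405 and 361 in the 5 Normal rats. The 5 Hypothermia rats had 297, 318, 266, 297 and 278. Of the 3 genes, Cyld had the clearest separation, with 31.5 normalized counts between the highest Hypothermia rat and the lowest Normal rat. The means were 374 ± 23.2 (SD, n = 5) in the Normal Group and 291 ± 19.8 (SD, n = 5) in the Hypothermia Group, and the log2FoldChange was -0.36 (standard error 0.08, edgeR adjusted p = 0.0109). Among the 3 genes it also had the narrowest spread. Its coefficient of variation was 6.81% in the Hypothermia Group and 6.20% in the Normal Group, while counting error gives 6.33% and 4.76%. The call held in all 10 refits without 1 rat, with log2FoldChanges from -0.40 to -0.33.

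The Bid gene is on chromosome 4 (Rnor_6.0), between 153442218 and 153465203 on the minus strand, and its counted length is 1992 bases. Normalized counts in the Normal rats were 193, 185, 158, 135 and 142. In the Hypothermia rats they were 209, 193, 261, 261 and 195. The groups met at their edges: Hypothermia replicate 2 (185 counts before scaling) was above Normal replicate 1 (209 counts before scaling) by 0.079 of a normalized count, which is under 1 read, so the separation of Bid is within counting error. Hypothermia replicates 3 and 4 were the high ones. The mean was 163 ± 25.7 (SD, n = 5) in the Normal Group and 224 ± 34.6 (SD, n = 5) in the Hypothermia Group. The log2FoldChange was 0.46 (standard error 0.14), a level 1.38 times that of the Normal Group, and the adjusted p was 0.0459 (edgeR). Bid had the fewest counts of the 3 genes, 145 to 256 per rat, and 8 of the 10 refits without 1 rat lost its call, where the adjusted p reached 0.121 (edgeR). It held without Hypothermia replicate 2 (adjusted p = 0.0413, edgeR) and without Normal replicate 1 (adjusted p = 0.0294, edgeR).

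**Figure D1:**
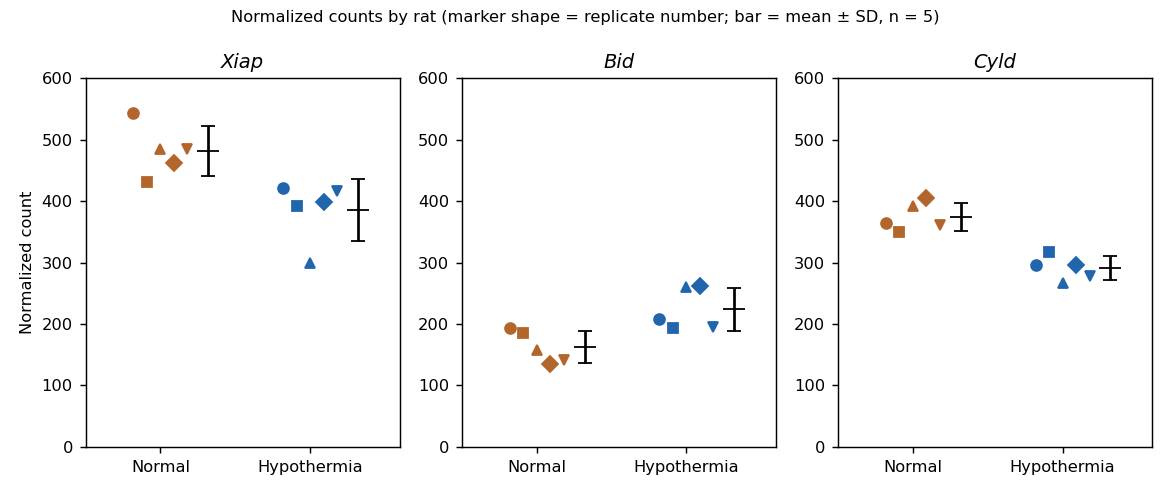
Normalized counts (vertical axis, counts divided by the authors' size factors) of Xiap, Bid and Cyld in the 5 Normal and 5 Hypothermia rats, where each point is 1 rat, marker shapes give the replicate number and black bars give the mean ± SD. Xiap and Cyld lie lower in the Hypothermia Group, Bid lies higher, and the lowest Hypothermia value of Bid (193) sits level with the highest Normal value (193).

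Changes of this size were small for the table. The median size of a log2FoldChange among the tested genes was 0.50 in either direction, and 83.2% of the tested genes had a larger one than Xiap, 73.5% than Cyld and 55.4% than Bid. Most tested genes were higher in the Hypothermia Group, with a median log2FoldChange of 0.36. Relative to that median, Xiap was lower by 0.68, Cyld was lower by 0.72 and Bid was higher by 0.10 on the log2 scale. Bid was thus the member nearest to the middle of the table.

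The directions of single genes rest on the scaling, and the ratio of 2 genes within 1 rat does not, since the size factor divides out. The ratio of Bid counts to Xiap counts was 0.356, 0.429, 0.325, 0.292 and 0.292 in the 5 Normal rats. It was 0.494, 0.493, 0.874, 0.656 and 0.468 in the 5 Hypothermia rats. Every Hypothermia rat was above every Normal rat, though the edges were close, at 0.468 and 0.429. This separation follows from those of Bid and Xiap with the size factors, so it is no further support. The mean log2 ratio differed by 0.79, a 1.73-fold higher ratio, with an average SD of 0.32 within the groups. Hypothermia replicate 3, where Xiap was low and Bid high, had the highest ratio, and without it the difference was 0.64. These values are a description, since the 3 genes were chosen with earlier results known.

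The ratio of Bid to Cyld behaved alike. It lay between 0.334 and 0.530 in the Normal Group and between 0.609 and 0.981 in the Hypothermia Group. That these ranges do not overlap again follows from the separations of Bid and of Cyld. The mean log2 ratio differed by 0.83. Leaving out any 1 rat gave differences from 0.73 to 0.91. The ratio of Xiap to Cyld, by contrast, was 1.29 ± 0.132 (SD, n = 5) in the Normal Group and 1.32 ± 0.149 (SD, n = 5) in the Hypothermia Group. Their ranges (1.14 to 1.49 and 1.12 to 1.498) overlapped almost entirely, and the difference of 0.04 on the log2 scale was smaller than the SD of 0.16 within the groups. Leaving out any 1 rat gave differences from -0.01 to 0.09.

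**Figure D2:**
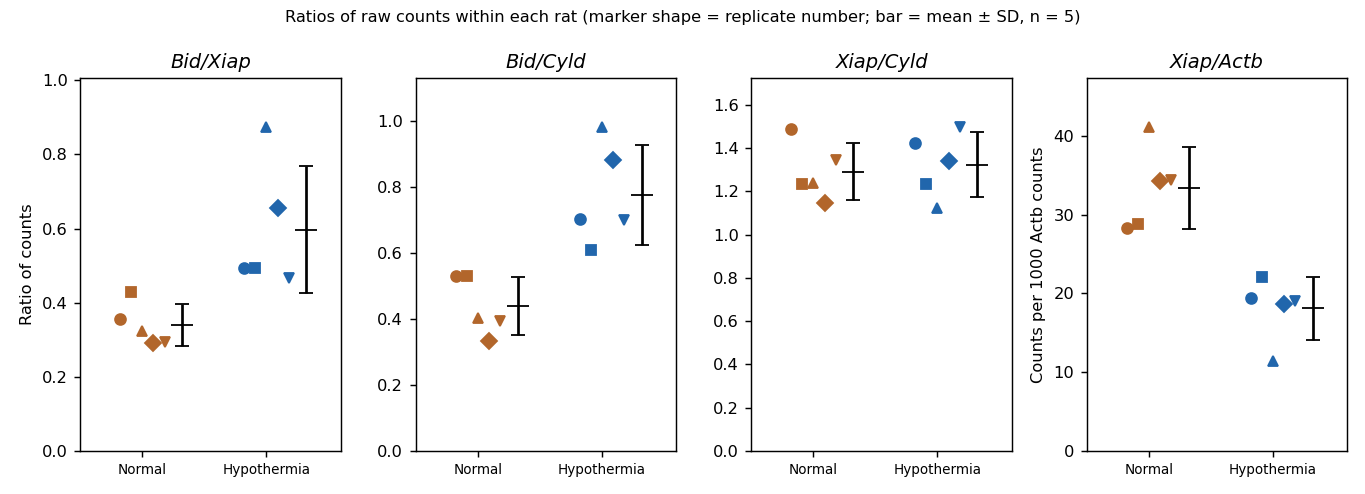
Ratios of raw counts within each rat (vertical axes) for Bid/Xiap, Bid/Cyld and Xiap/Cyld, and Xiap counts per 1000 Actb counts, in the Normal and Hypothermia Groups, with marker shapes for the replicate number and bars for the mean ± SD. The Bid/Xiap and Bid/Cyld ratios are higher in every Hypothermia rat, Xiap/Cyld overlaps between the groups, and Xiap per Actb is lower in every Hypothermia rat.

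Levels of different genes can be compared per length, as FPKM, which divides the fragments of a gene by its length in kilobases and by depth. Xiap was the most abundant of the 3, at an FPKM of 11.3 ± 0.960 (SD, n = 5) in the Normal Group and 9.05 ± 1.17 (SD, n = 5) in the Hypothermia Group. Cyld had 6.31 ± 0.391 (SD, n = 5) and 4.91 ± 0.334 (SD, n = 5), and Bid had 4.90 ± 0.776 (SD, n = 5) and 6.75 ± 1.04 (SD, n = 5). The order of Cyld and Bid was reversed between the groups. In the Normal Group the FPKM of Bid was below that of Cyld in 5 of 5 rats, with a ratio of 0.597 to 0.949. In the Hypothermia Group it was above that of Cyld in 5 of 5 rats, with a ratio of 1.09 to 1.75. Normal replicates 1 and 2 (0.949 and 0.946) and Hypothermia replicate 2 (1.09) were closest to equal levels. Xiap had the highest FPKM in 5 of 5 Normal rats and in 4 of 5 Hypothermia rats, and the exception was Hypothermia replicate 3, where Bid (7.88) was above Xiap (7.01). Which gene is higher in a rat depends on the gene lengths that the authors used, while the change between the groups does not.

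**Figure D3:**
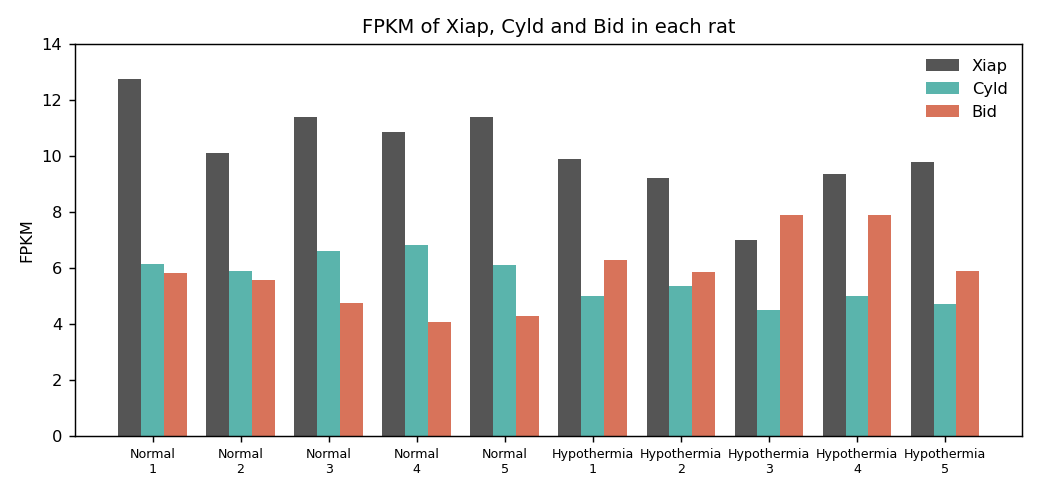
FPKM (vertical axis) of Xiap, Cyld and Bid as bars for each of the 10 rats, Normal rats on the left and Hypothermia rats on the right. Cyld stands above Bid in all 5 Normal rats and Bid above Cyld in all 5 Hypothermia rats, while Xiap is the tallest bar everywhere except in Hypothermia replicate 3.

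Actb, the β-actin gene that served as the RT-qPCR reference, was itself in the table. It was higher in the Hypothermia Group, with a log2FoldChange of 0.57 (standard error 0.15, edgeR adjusted p = 0.0296) and overlapping groups, and 8 of the 10 refits without 1 rat lost this call. A ratio to Actb therefore carried the change of Actb as well. Per 1000 Actb counts, Xiap had 28.3, 28.8, 41.1, 34.2 and 34.4 counts in the Normal rats and 19.4, 22.04, 11.3, 18.7 and 19.0 in the Hypothermia rats. On the log2 scale the mean ratio was lower by 0.90 in the Hypothermia Group, against 0.32 for Xiap with the size factors. Cyld per 1000 Actb counts was 26.2 ± 5.56 (SD, n = 5) in the Normal Group and 13.6 ± 2.80 (SD, n = 5) in the Hypothermia Group, also without overlap. Bid per 1000 Actb counts was 11.2 ± 1.58 (SD, n = 5) and 10.3 ± 1.31 (SD, n = 5), and the groups overlapped.

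Under other scalings Xiap and Cyld kept their direction and Bid did not. With TMM factors from the listed genes, all log2FoldChanges moved down by a median of 0.29, and Xiap had -0.60 (adjusted p = 0.00661, edgeR) and Cyld -0.65 (adjusted p = 0.00388, edgeR), while Bid had 0.18 (standard error 0.13) and was not called. Scaled to Actb, Bid had -0.12 (standard error 0.15). Scaled to the total of the listed genes, which the lens fibre genes dominate, it was called lower, with -0.75 (standard error 0.23, edgeR adjusted p = 0.0319). Factors made from a list of changed genes assume that changes balance within that list, which was not tested. Among the tested genes 1686 were called higher and 662 lower with the size factors, against 639 and 1100 with TMM.

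**Figure D4:**
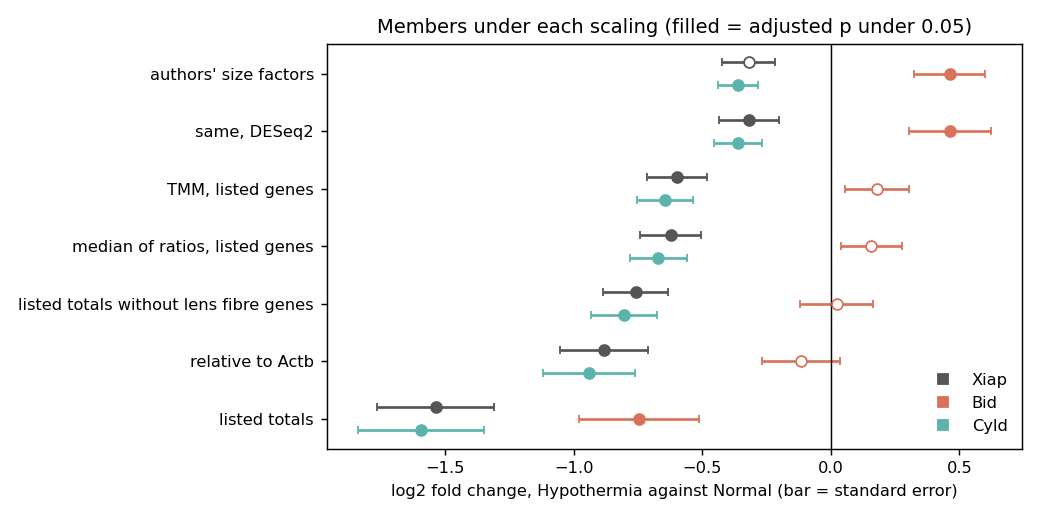
log2FoldChange (horizontal axis, bars give the standard error) of Xiap, Bid and Cyld under each scaling of the counts, with filled points for an adjusted p under 0.05. Xiap and Cyld stay together left of 0 under each scaling shown, and Bid moves from 0.46 with the authors' size factors to -0.75 with listed totals.

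The 3 genes were placed among 150 genes in 5 lists of cell death regulators, of which 32 were in the table and 31 were tested. Of the 31, 20 were called higher in the Hypothermia Group, 4 were called lower and 7 did not pass the test, and the median log2FoldChange was 0.45. Of all tested genes, 52.3% were called higher and 20.5% lower, with a median of 0.36, and the lists were not tested against them. With TMM, 5 of these genes were called higher and 9 lower. Without Normal replicate 4 the counts were 8 higher and 2 lower, and 11, 11 and 13 genes were called higher without Normal replicate 3, Normal replicate 5 and Hypothermia replicate 5. Calls over all tested genes fell too, from 1686 higher and 662 lower to 1077 and 300 without Normal replicate 4. In those other refits 1189, 1171 and 1273 of all tested genes were called higher. Genes of the lists that are not in the table, among them Casp8, Bax, Bcl2, Mtch2 and Spata2, were not analysed here.

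Xiap belongs to the IAP family, and 4 of the 10 genes on the list of IAP proteins and their antagonists were tested. Birc7 (livin), an IAP with a narrow range of tissues, rose most, with a log2FoldChange of 2.61 (standard error 0.66, edgeR adjusted p = 0.0266), and it lay between 19.1 and 370.0 normalized counts in the Normal Group and between 400.4 and 1361 in the Hypothermia Group. Its call held in 5 of the 10 refits without 1 rat. Birc6, a very large IAP that is also a ubiquitin-conjugating enzyme, fell by 0.38 (standard error 0.09, edgeR adjusted p = 0.0185), and its groups did not overlap. Birc5 (survivin), which acts mainly in cell division, had a log2FoldChange of -0.78 (standard error 0.26) and did not pass the test (adjusted p = 0.0691, edgeR). Of the 4 IAP genes, 1 was thus called higher and 1 lower, against 52.3% and 20.5% of all tested genes. Xiap and Birc5 did not pass the test with the authors' size factors.

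From the list of caspases and apoptosome genes, Cycs (cytochrome c, which starts the apoptosome once released from mitochondria) had a log2FoldChange of 0.49 and Cflar (c-FLIP, which holds back caspase-8) one of -0.55, and neither passed the test (adjusted p = 0.0734 and 0.0562, edgeR).

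Bid was 1 of 6 tested genes on the list of 26 BCL-2 family members and mitochondrial partners. Of the 6, 5 were called higher and 1 lower, against 52.3% and 20.5% of all tested genes. Next to Bid, the higher ones were Vdac3 (log2FoldChange 0.60, standard error 0.13), Bnip3l (0.57, standard error 0.14), Bcl2l2 (0.45, standard error 0.11) and Vdac2 (0.34, standard error 0.09). Bcl2l2 (BCL-w) is a pro-survival member of the family, Bnip3l (NIX) is a receptor for mitophagy, and Vdac2 and Vdac3 form channels in the outer mitochondrial membrane. Bik, another BH3-only gene, went the other way, with 77.9 ± 20.2 (SD, n = 5) normalized counts in the Normal Group and 35.7 ± 11.5 (SD, n = 5) in the Hypothermia Group, a log2FoldChange of -1.13 (standard error 0.28, edgeR adjusted p = 0.0208). Bik and Bid thus had opposite directions with the authors' size factors. With Actb as the scaling Bid was not called (-0.12, standard error 0.15), and with listed totals it was called lower. With TMM none of the 5 higher genes was called, and Bik was (adjusted p = 0.00813, edgeR).

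Cyld was 1 of 6 tested genes on the list of 45 genes around the TNF receptor, the CYLD complex and NF-κB. With the authors' size factors 2 of the 6 were called higher and 1, Cyld, lower, against 52.3% and 20.5% of all tested genes. With TMM Traf3 (-0.54, adjusted p = 0.00878, edgeR) and Traf5 (-0.92, adjusted p = 0.0143, edgeR) were called lower as well. Of the 3220 genes tested with TMM, 1100 were called lower. Nfkbib (IκBβ, an inhibitor of NF-κB) rose by 0.63 (standard error 0.17, edgeR adjusted p = 0.0332) and Malt1, a paracaspase that can cut CYLD protein, by 0.38 (standard error 0.10, edgeR adjusted p = 0.0252). These calls held in 2 and 4 of the 10 refits without 1 rat, and with TMM both were lost, at 0.35 for Nfkbib (adjusted p = 0.314, edgeR) and 0.09 for Malt1 (adjusted p = 1, edgeR). The adaptor genes Traf3 and Traf5 had log2FoldChanges of -0.26 and -0.63 and the peptidoglycan sensor Nod1 one of 0.26 (-0.02 with TMM), and none of these passed the test (adjusted p = 0.0715, 0.0659 and 0.0730, edgeR).

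Of 50 other regulators and survival genes, 12 were tested. Of these, 11 were called higher and 1 lower, against 52.3% and 20.5% of all tested genes. Only Nol3, Tmbim4, Aven and Map3k5 stayed called higher with TMM. The largest increases were those of Faim2 (2.10, standard error 0.60), which inhibits Fas-driven death, Nol3 (1.73, standard error 0.29), also called ARC, which blocks several caspases and death receptor steps, and Map3k5 (1.34, standard error 0.24), the stress kinase ASK1. Faim2 was called in 2 of the 10 refits without 1 rat, and Nol3 and Map3k5 in 10 of 10. The smallest increases called were those of Dapk3 (0.28, which turned to -0.01 with TMM), Bcap31 (0.30) and Bag6 (0.34). Pik3r1, the regulatory subunit of PI3K that feeds Akt survival signalling, was the gene called lower, with 1421 ± 130 (SD, n = 5) normalized counts in the Normal Group and 936 ± 123 (SD, n = 5) in the Hypothermia Group. Like Xiap and Cyld, it did not overlap between the groups. Under TMM, the 5 genes called higher in all lists were Birc7, Nol3, Tmbim4, Aven and Map3k5.

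**Figure D5:**
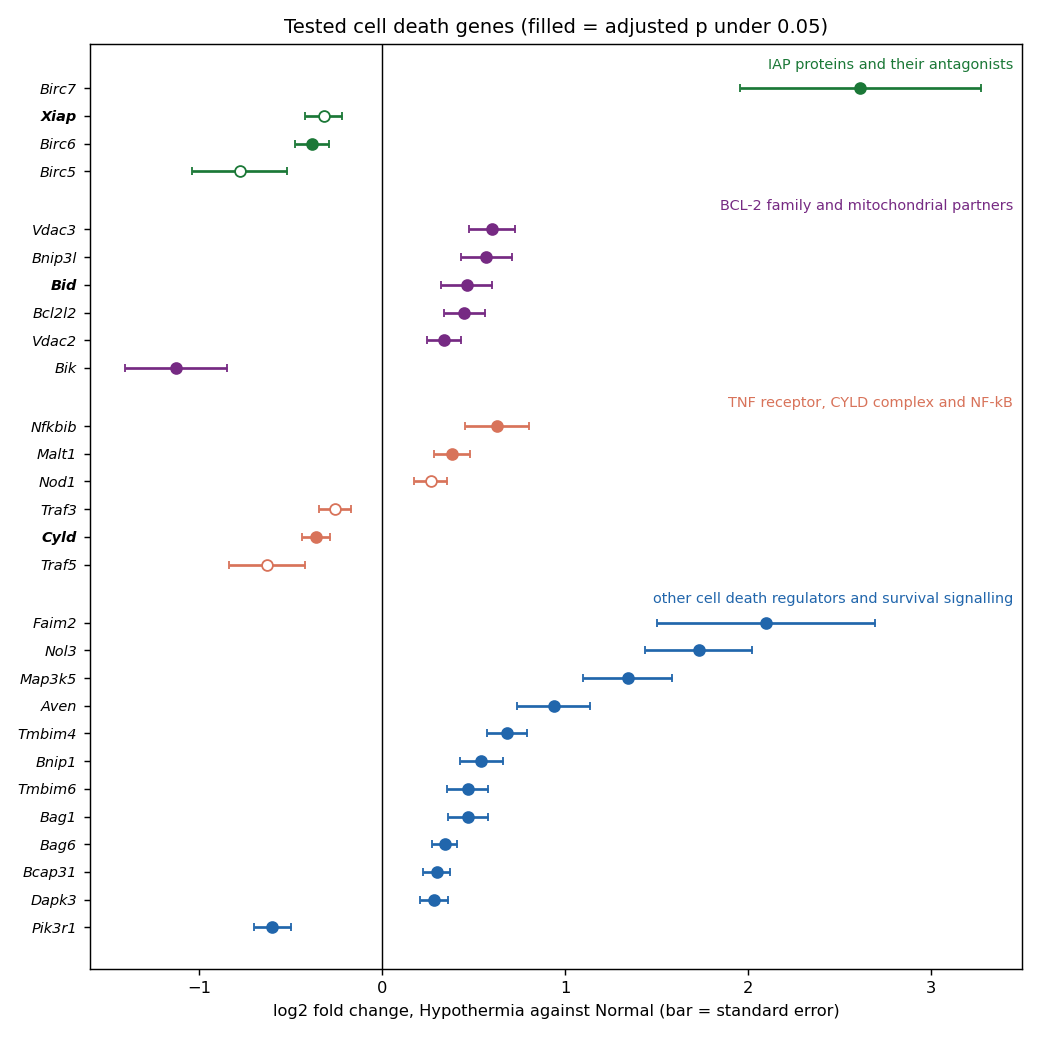
log2FoldChange (horizontal axis, bars give the standard error) of the tested genes in 4 of the 5 cell death lists (the list of caspases and apoptosome genes is not drawn), with filled points for an adjusted p under 0.05 and the names of Xiap, Bid and Cyld in bold. Within the IAP, BCL-2 and TNF receptor lists genes lie on both sides of 0, and of the other regulators Pik3r1 alone lies left of 0.

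The variation of the 3 genes within the groups is given as correlations, which were not tested. After each group's mean was taken away, the log2 values of Xiap and Cyld had a correlation of r = 0.41 over the 10 rats, those of Bid and Xiap of -0.29, and those of Bid and Cyld of -0.53, where the rats share 1 scaling per library. Among 2981 genes whose mean reached 50 normalized counts, those most like Cyld were Prkci (r = 0.98), Ston1 (0.95) and Rab11fip1 (0.93). Those most like Bid were Spag5 (0.97), Psma7 (0.97) and Arhgdia (0.96), and 20 genes had an r above 0.9 with Bid against 4 with Cyld and 0 with Xiap. For Xiap the most alike were Atp8a2 (0.85), Efhd2 (0.82) and LOC103694328 (0.82). The genes named are the highest of 2981 over 10 rats, and no chance level was set.

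No other gene of the table overlapped any of the 3 loci. Within 500 kb, a window chosen after the values were seen, the table held 1 gene near Xiap, Thoc2, which was 141 kb away and fell by 0.29 (standard error 0.06). Near Bid it held Mical3, 19.7 kb away, Cecr2, Kdm5a and Iqsec3, all called lower while Bid was called higher with the authors' size factors. Near Cyld, Brd7 was 357 kb away and rose by 0.35 (standard error 0.08), and a gene without a symbol was also called higher. With these factors the listed neighbours of Bid and of Cyld had the opposite direction to the member, and Thoc2 had that of Xiap. Of all tested genes, 52.3% were called higher and 20.5% lower. Neighbours outside the selected table are not seen, and a link between position and direction was not tested. Which strand setting was used in counting is not given in the sources used here, so reads from antisense transcripts at these loci cannot be told apart.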

How the data were processed

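RNA-seq libraries of 10 lens capsule samples, 5 per group, were used. HISAT2 (2.0.5) and featureCounts (1.5.0-p3) were used by the authors, on paired-end reads and the Rnor_6.0 genome, and the deposited counts are raw whole numbers for each gene. The annotation release is not given in the sources used here. FPKM, also deposited, was derived by the authors using gene lengths and the same size factors. The authors' group means of normalized counts, a signal on the count scale, came from DESeq2 (1.16.1), and their size factors were recovered from them by least squares (largest relative error 4.89e-10). Deposited columns of fold changes and p-values hold the authors' own comparison and were not used.

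After filterByExpr, a robust glmQLFit model and glmQLFTest from edgeR 4.0.16 (R 4.3.3) were run on all genes and all 10 rats, and the model held group alone. P-values were adjusted with the Benjamini-Hochberg method as for 17000 genes, a round figure near the study's number of expressed genes, because the table holds selected genes only. Samples were separate rats, and no pair of libraries within a group came near sampling noise in a chi-square comparison of counts. The members, lists and tests were chosen with earlier results of these data known. From each list, called genes with the 3 highest and 3 lowest log2 fold changes were named, plus Pik3r1, Birc7, Mtch2, Spata2, Casp8, Bax and Bcl2, and for each member the 3 genes with the highest correlation. Other genes named are the remaining members of a list and genes lying near a member. A standard error is the size of the fitted change over the root of its F statistic. The test was run on simulated counts in which few genes changed, equally often up and down, and by more than the members did. That run does not bear on the scaling or on changes as small as those of the members. Permutation tests used scipy 1.17.1 and a pseudocount of 1. Alternatives were other scalings, DESeq2 1.42.0, no filter, robust = FALSE, a replicate block, each rat left out, and adjustment over the tested genes. Scaling to Actb, and the scalings and omissions for permutation tests, were added after the data were seen. Some genes that the naming rule covers are not reported here.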

Additional observations from a re-analysis of the deposited data

Results flagged for a closer look

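Of 18 sets of 5 values examined (the normalized counts of the 3 genes and 6 count ratios, in each group), 1 held a value far from the others. The normalized count of Xiap in Hypothermia replicate 3 was 299, and its gap to the next rat was 0.757 of the group's range, above Dixon's 95% critical value of 0.71 for 5 samples. Chance gives about 1 such value in 20 sets. The same rat had 261 normalized counts of Bid, close to the highest of its group, 266 of Cyld, the lowest, and the second highest share of lens fibre counts (66.6%).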

How the results depend on the processing

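Cyld kept its direction in all alternatives and its call in all but the replicate block (-0.36, adjusted p = 0.0690, edgeR). Xiap kept its direction in all, and it was called with TMM (-0.60), median-of-ratios factors (-0.62), listed totals (-1.54), listed totals without lens fibre genes (-0.76), Actb (-0.88), DESeq2 (-0.32) and adjustment over the tested genes (-0.32, adjusted p = 0.0110, edgeR). Bid was not called with TMM (0.18), median-of-ratios factors (0.16), listed totals without lens fibre genes (0.0218), the replicate block (0.46) and Actb (-0.12, standard error 0.15). With listed totals Bid was called lower (-0.75). Leaving out 1 rat, with the authors' size factors, gave 0.40 to 0.53. The exact permutation test on Bid gave differences of 0.17, 0.15 and 0.0131 with the first 3 scalings (p = 0.190, 0.198 and 0.913), and of -0.76 and -0.11 with listed totals and Actb.

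In the cell death lists, 20 genes were called higher and 4 lower. The numbers were 5 and 9 with TMM, 6 and 9 with median-of-ratios factors, 1 and 23 with listed totals, 2 and 9 both with listed totals without lens fibre genes and with Actb, 21 and 10 with DESeq2, 22 and 9 with adjustment over the tested genes, and 5 and 1 with the replicate block. Leaving out 1 rat gave 8 to 20 higher and 2 to 6 lower.

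Over all tested genes, 2348 calls (1686 higher) became 1739 (639) with TMM, 1712 (611) with median-of-ratios factors, 2455 (57) with listed totals, 1443 (315) without lens fibre genes, 1335 (196) with Actb, 943 (809) with the replicate block, and 1377 to 2385 when 1 rat was left out. The replicate numbers did not pair the rats: deviations of same-numbered rats had correlations of -0.17 to 0.23, with 1 of 5 pairs over 0.1 and 0 rats matching their own number best. The log2 ratios between members and to Actb moved by less than the SD within groups when any 1 rat was left out. With 5 rats per group a larger move is not possible, so this is no sign of stability. Depth limits Bid most, at 145 to 256 counts per rat.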
